A study of Mus musculus with 4 samples.

Results

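The genes described here are 34 members of the fibroblast growth factor (FGF) and ERK signalling pathway. They were taken by symbol from the gene table of mouse embryonic stem cells (ESCs). This list and that of other pathway genes below were drawn up with earlier results of these data known. The 34 genes comprise 7 ligands, 4 receptors, 6 adaptor and RAS genes, 5 kinases and 12 ERK feedback targets. The feedback targets belong to the *Spry*, *Spred*, *Dusp* and *Etv* families. All 34 were found among 17710 features with a symbol, in a table of 19645 features. RNA sequencing (RNA-seq) was done on 2 libraries of wild-type (WT) ESCs and 2 libraries of ESCs in which *Bmal1* was knocked out with CRISPR-Cas9 (*Bmal1* KO), all undifferentiated and grown on gelatin in medium with serum and LIF. *Bmal1*, listed under its symbol *Arntl*, encodes the core clock activator that binds E-box DNA together with CLOCK. The KO cells were 1 line selected after editing, and the name of the parental ESC line was not given in the sources used here. The comparison of KO with WT asked which genes of the pathway differed in ESCs that lack BMAL1.

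FGF ligands bind receptor tyrosine kinases, and the adaptors FRS2, GRB2 and SOS1 then load RAS proteins with GTP. RAS activates the RAF, MEK and ERK kinases in turn. ERK switches on ETV transcription factors as well as its own inhibitors, the Sprouty and SPRED proteins and the DUSP phosphatases, so the RNA of these genes is often used as a readout of the pathway. In mouse ESCs, FGF4 made by the cells themselves is the main ligand, and signalling from it through ERK readies the cells to leave naive pluripotency.

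Expression is given as FPKM, fragments scaled to transcript length and to the mapped fragments of the library, a scale per length on which levels of different genes can be set side by side. The deposited values hold no read numbers, and sequencing depth is therefore unknown. Median FPKM over all features lay between 2.32 and 2.46 in the 4 libraries, and log2 values of replicates correlated at 0.987 in WT and 0.986 in KO across features. The makeup of the libraries differed between genotypes, as features without a symbol held 26.8% and 37.3% of summed FPKM in WT. In KO they held 19.0% and 18.1%. *Arntl* itself was at 6.05 and 6.29 FPKM in WT and 5.95 and 5.92 FPKM in KO. Its RNA level was thus close in all 4 libraries, and the study describes a short deletion within the gene, which a gene-level FPKM does not resolve. Of the Y-linked genes checked, *Kdm5d* was near 0 throughout (at most 0.0168 FPKM), and the others separated the genotypes. *Ddx3y* was at 0.235 and 0.403 FPKM in WT but 16.4 and 20.6 in KO. *Eif2s3y* was at 1.40 and 2.04 in WT but 44.6 and 53.1 in KO, and *Uty* at 0.110 and 0.0965 against 3.58 and 5.16. Since this difference coincided with genotype, the loss of *Bmal1* and other differences between the 2 cell populations cannot be told apart in any comparison below. The 8 ESC markers summed to 6043 and 5893 FPKM in WT and 5955 and 5592 in KO, with *Pou5f1* and *Nanog* abundant throughout. Fibroblast markers, of which 6 of 8 were found, summed to at most 3.31 FPKM, mesoderm markers to 3.38 or less, primitive endoderm markers to 64.6 and 62.9 in WT against 53.2 and 51.6 in KO, and neural markers to 133 and 127 in WT against 95.2 and 88.2 in KO. The neural sum was nearly all *Tubb3* (130 and 124 FPKM in WT, 82.5 and 74.0 in KO). No marker was at 0 in every library. By the test described below, *Klf4* fell and *Tfcp2l1* rose among the ESC markers, *Sparc* fell among those of primitive endoderm, *Sox1*, *Pax6* and *Neurod1* rose and *Tubb3* fell among the neural ones, and *Eomes* fell among those of mesoderm. *Neurod1* reached the minimum of that test only through KO, its WT mean being 0.470 FPKM. The part of cells of these types in the results was not tested. In bulk RNA, fewer cells of a type and less RNA per cell cannot be told apart.

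KO was compared with WT by limma on log2(FPKM + 0.1) over the 12990 features whose mean FPKM reached 0.5, and each adjusted p below is from this test with Benjamini-Hochberg adjustment over all of them. Fold changes are on that scale, which understates the change of genes with low FPKM. A gene passed the test at an adjusted p under 0.05 and was called when it also changed by more than 2-fold. Of the 34 genes, 31 reached the minimum. *Fgf8*, *Fgf10* and *Fgfr3* did not and were not tested.

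In *Bmal1* KO ESCs the pathway was not shifted as a block. The phosphatase genes *Dusp4* and *Dusp6*, the feedback inhibitor *Spry4*, the transcription factor *Etv5*, the ligands *Fgf4* and *Fgf1* and the receptor *Fgfr2* were higher in KO, whereas the ligand *Fgf15* and the kinase *Braf* were lower. The adaptors and RAS genes and the MEK genes did not pass the test in either direction. In all, 7 of the 31 tested genes rose, which is 22.6%, beside 6.85% of all tested features. Another 2 fell, or 6.45%, beside 5.6% of all features. Called genes were *Fgfr2* and *Dusp4*, both higher (2.72% of all features), and none was called lower (1.42% of all features). Because *Fgfr2* reached the minimum only through the KO libraries, it had to differ, and without it 6 of 30 genes rose. The log2 fold changes had a median of 0.12 over the 31 genes, against -0.02 over all tested features. For 16 genes the lower KO value exceeded the higher WT value, for 6 the reverse held, and for 9 the groups overlapped. Among all tested features the corresponding shares were 27% above and 31.7% below.

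**Figure D1:**
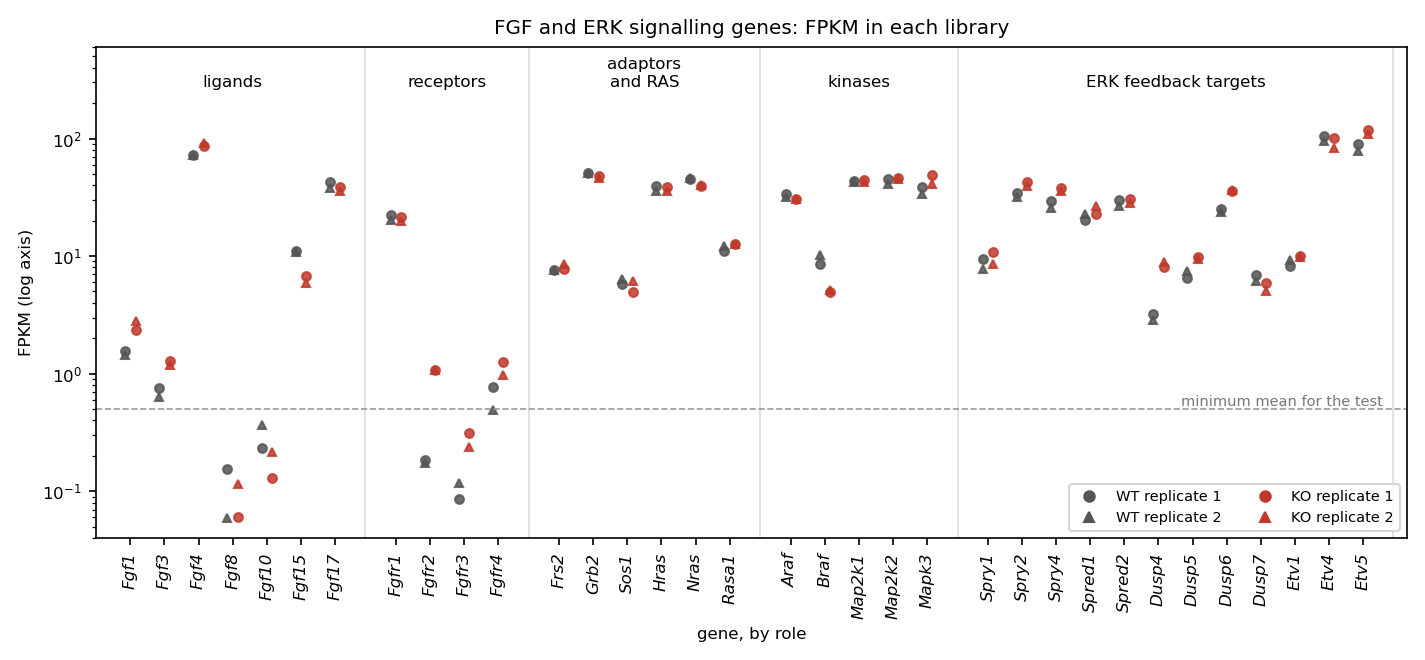
FPKM of the 34 genes on a log axis, ordered by role, with WT libraries in grey, KO libraries in red, circles for replicate 1 and triangles for replicate 2. Levels span from under 0.1 FPKM for *Fgf8* to about 100 FPKM for *Etv4* and *Etv5*. Red and grey points do not overlap at *Fgfr2*, *Dusp4*, *Dusp6*, *Fgf15* and *Braf*, nor at the low *Fgf1*, *Fgf3*, *Fgfr3* and *Fgfr4*, among others.

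**Figure D2:**
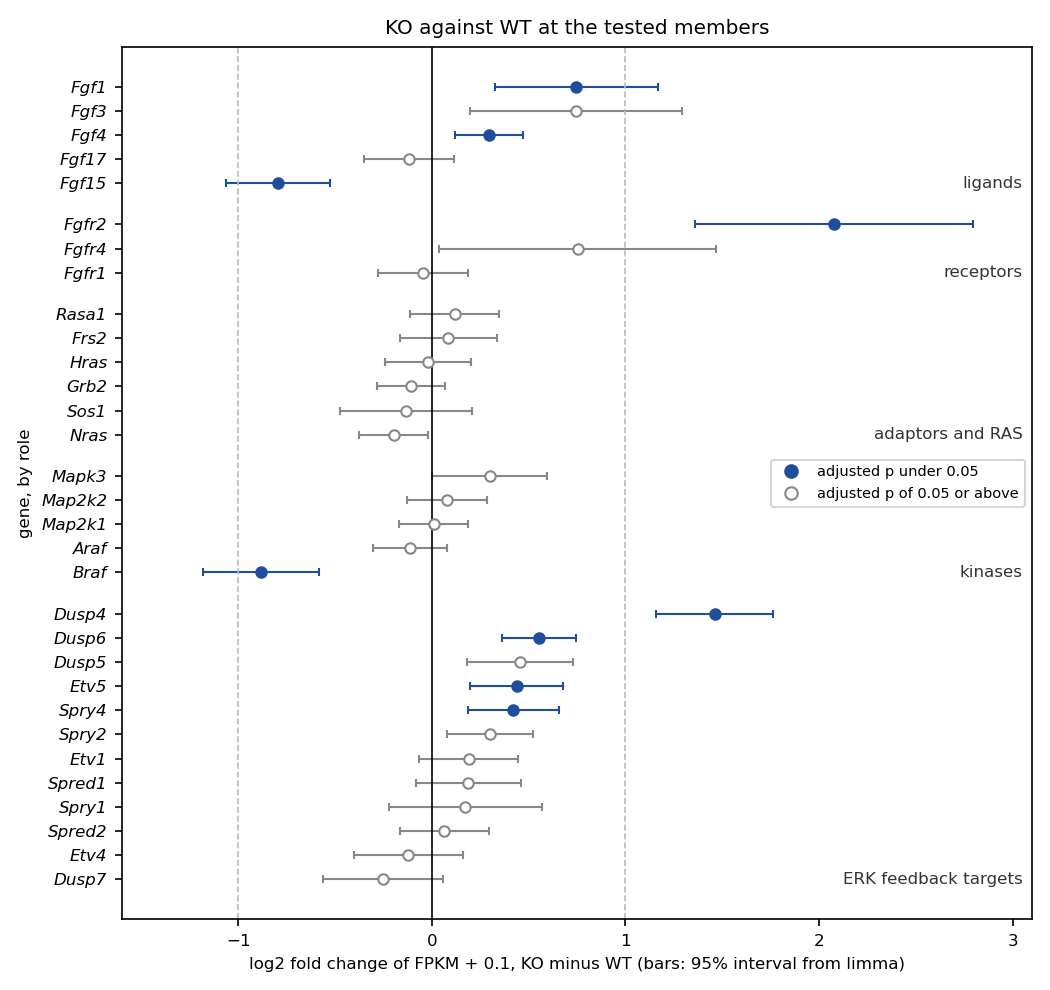
Log2 fold change of KO over WT for the 31 tested genes on the log2(FPKM + 0.1) scale, with 95% intervals from limma as bars, filled points at an adjusted p under 0.05 and dashed lines at 2-fold. Filled points mark 9 genes, from -0.88 for *Braf* to 2.08 for *Fgfr2*, and the adaptors and RAS genes lie between -0.20 and 0.12.

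Among the ligands, *Fgf4* was the most abundant. Its feature spans 4022 bases, against 17877 bases of the GENCODE gene, whose longer transcript starts further upstream, so its level is uncertain to that extent. It was at 72.4 and 72.3 FPKM in WT and 86.9 and 90.8 in KO. The genotypes did not overlap, and the rise from 72.3 ± 0.120 to 88.8 ± 2.73 FPKM (SD, n = 2 in each group here and below) was small but passed the test, with a log2 fold change of 0.30 (SE 0.07, adjusted p = 0.0493). This call sat at the threshold. It was lost with a pseudocount of 0.01, with no minimum FPKM and without a variance trend (adjusted p up to 0.124). It was also lost when any 1 of the 4 libraries was left out, where the log2 fold change ranged from 0.26 to 0.33. *Fgf15*, the mouse counterpart of human FGF19, moved the opposite way. It was at 11.1 and 10.9 FPKM in WT and 6.77 and 5.90 in KO, with no overlap between the groups. The fall was 0.79 on the log2 scale (SE 0.11, 95% interval -1.06 to -0.52, adjusted p = 0.0113), and it passed in all 9 alternative analyses that kept all libraries. With 1 library left out, the log2 difference ranged from -0.89 to -0.69. GENCODE lists *Gm26793* and *Gm39119* on the opposite strand of *Fgf15*, and reads from them cannot be told apart from its own.

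*Fgf4* and *Fgf15* are neighbours. In the coordinates of the files (mouse GRCm38), *Fgf3* lies at chr7:144838124-144844408, *Fgf4* at chr7:144861229-144865250 and *Fgf15* at chr7:144896532-144900951, all 3 on the plus strand and within 62828 bases. The ratio of *Fgf4* to *Fgf15* FPKM was 6.51 and 6.61 in WT and 12.8 and 15.4 in KO, so these adjacent ligand genes diverged in both KO libraries. *Fgf3*, the outer member of the cluster, was low at 0.757 and 0.639 FPKM in WT and 1.29 and 1.18 in KO. Its groups did not overlap, but the log2 difference of 0.75 (SE 0.22, adjusted p = 0.0878) did not pass the test.

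*Fgf1*, a ligand that binds all FGF receptors, was at 1.56 and 1.43 FPKM in WT and 2.36 and 2.81 in KO. Its log2 fold change of 0.75 (SE 0.17, adjusted p = 0.0437) passed the test, though not with no minimum FPKM (adjusted p = 0.0939) or under quantile scaling (0.0559). Nor did it pass without WT replicate 2 or KO replicate 2. With 1 library left out, its log2 difference ranged from 0.63 to 0.87. The feature also covers *Gm5820* and overlaps *Arhgap26*, and so the assignment of its reads to *Fgf1* is uncertain. *Fgf17*, the runner-up in abundance, was at 43.0 and 38.0 FPKM in WT and 38.8 and 35.9 in KO. Its groups overlapped (log2 difference -0.12, adjusted p = 0.466). The remaining ligands were below 0.5 FPKM, with *Fgf8* between 0.0595 and 0.156 FPKM and *Fgf10* between 0.129 and 0.367 FPKM over the 4 libraries. Summed over the 7 ligands, FPKM was 129 and 124 in WT and 136 and 137 in KO. *Fgf4* made up 56.0% and 58.4% of this sum in WT and 63.8% and 66.3% in KO, while *Fgf15* went from 8.60% and 8.84% to 4.97% and 4.31%.

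Among the receptors, *Fgfr1* carried nearly all of the RNA, and *Fgfr2* showed the largest change of the 31 tested genes. *Fgfr1* was at 22.6 and 20.3 FPKM in WT and 21.6 and 20.0 in KO. The groups overlapped, and the 95% interval of its log2 difference ran from -0.28 to 0.19 (log2 difference -0.04, adjusted p = 0.788). A second *Fgfr1* feature at the same coordinates was at 1.63 to 1.85 FPKM and likewise did not pass (adjusted p = 0.843). *Fgfr2* (chr7:130162451-130266808 on the minus strand), the receptor associated with primitive endoderm and trophoblast in the early embryo, was at 0.184 and 0.172 FPKM in WT and 1.07 and 1.08 in KO. Replicates were close together and the groups far apart. Its FPKM was 6.03 times as high in KO as in WT, and on the log2(FPKM + 0.1) scale it rose by 2.08 (SE 0.29, adjusted p = 0.0119). With a minimum mean of 1 FPKM, or without either KO library, it fell below the minimum and was not tested. Since it was tested only through its KO values, passing under the other settings says little about its stability. Beside this, the primitive endoderm sum given above was nearly all *Sparc* (63.5 and 61.7 FPKM in WT, 51.3 and 49.8 in KO). Of the other 7 markers on that list, *Sox7*, *Dab2*, *Pdgfra* and *Foxa2* were higher in both KO libraries, all at low levels, with *Sox7* at 0.260 and 0.247 FPKM in WT and 0.709 and 0.627 in KO and *Dab2* at 0.0993 and 0.136 in WT and 0.327 and 0.343 in KO. *Gata4* was lower in both, and *Gata6* and *Sox17* overlapped between the genotypes. Their part in the *Fgfr2* value was not tested.

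The other receptors were rare. *Fgfr4*, through which FGF15 acts in liver, was at 0.765 and 0.491 FPKM in WT and 1.25 and 0.978 in KO, with no overlap, and its log2 difference of 0.75 (SE 0.29, adjusted p = 0.154) passed only without WT replicate 1 (log2 difference 1.03, adjusted p = 0.0478). *Fgfr3* was at 0.0866 and 0.118 FPKM in WT and 0.316 and 0.237 in KO, under the minimum for testing. As a share of the summed receptor FPKM, *Fgfr1* went from 95.6% and 96.3% in WT to 89.1% and 89.7% in KO. Only the more abundant *Fgfr1* feature entered this sum. *Fgfr2* accounted for 0.781% and 0.817% in WT and 4.42% and 4.86% in KO. The sum itself was 23.6 and 21.1 FPKM in WT and 24.2 and 22.3 in KO, so the makeup of the receptor RNA moved and its total overlapped between the groups.

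**Figure D3:**
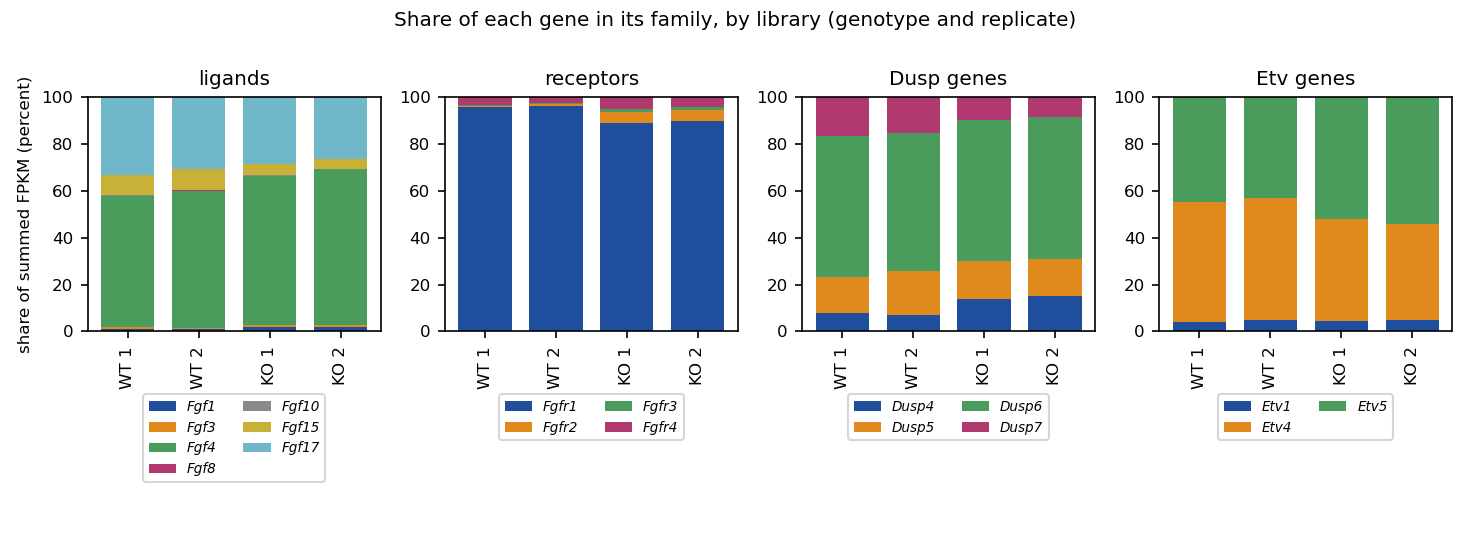
Share of each gene in the summed FPKM of its family, in percent, with 1 bar for each library of WT and KO. The share of *Fgf15* among ligands is smaller in both KO libraries, and that of *Fgfr2*, *Dusp4* and *Etv5* is larger.

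BMAL1 with CLOCK binds the canonical E-box CACGTG, and promoters of the genes were therefore searched for it on both strands. RefSeq windows on GRCm38.p6, from 250 bases before to 50 bases after the start, were at hand for 25 of the 34 genes. The E-box was found in 2 of these, *Fgfr2* and *Nras*, and in 8.09% of 27025 genes with a window. The 30 bases around each match are printed below in lower case with the E-box in capitals, 5′ to 3′ on the strand of the gene. *Fgfr2* is on the minus strand at chr7:130266763-130266792, just after its start, and *Nras* on the plus strand at chr3:103058258-103058287, just before its start.
Fgfr2: caattacctattCACGTGttcccttcctaa
Nras: tagtcgtcggccCACGTGgctggggcgggg
*Fgfr2* rose in KO, whereas *Nras*, a RAS gene, was at 45.2 and 45.8 FPKM in WT and 39.2 and 40.2 in KO and did not pass the test (log2 difference -0.20, SE 0.07, adjusted p = 0.136). The run CCGGAA, a form of the sites bound by ETS factors such as the ETV proteins, was searched on both strands as well. Shorter or other forms of these sites were not searched. It was found in 8 of the 25 genes, *Araf*, *Fgfr4*, *Frs2*, *Hras*, *Map2k1*, *Rasa1*, *Sos1* and *Spry2*, against 16.7% of all genes with a window. None of these 8 genes passed the test. A match is a run of letters and not a measured binding site. No window was at hand for *Fgf1*, *Fgf8*, *Fgf15*, *Fgf17*, *Fgfr1*, *Mapk3*, *Spry4*, *Dusp4* and *Etv4*.

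The adaptor and RAS genes were expressed at moderate to high levels, and 0 of 6 passed the test in either direction. *Grb2*, the adaptor that brings SOS to the receptor, was the most abundant. It was at 50.8 and 50.5 FPKM in WT and 47.9 and 46.1 in KO, and its log2 difference of -0.11 (SE 0.07, adjusted p = 0.372) was small although the groups did not overlap. *Frs2*, the docking protein of FGF receptors, lay between 7.56 and 8.49 FPKM over the 4 libraries, *Sos1*, a RAS exchange factor, between 4.98 and 6.34, and *Hras* between 35.7 and 39.6. *Rasa1*, which turns RAS off, lay between 11.1 and 12.8 FPKM. Log2 differences of the 6 genes ranged from -0.20 to 0.12. The features of *Hras* and *Rasa1* share coordinates with other genes (*Lrrc56* and *Lmntd2*, and *Ccnh*), and their values are uncertain for that reason.

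Of the 5 kinase genes, *Braf* alone passed the test, and it fell. *Braf*, an activator of MEK, was at 8.60 and 10.2 FPKM in WT and 4.95 and 5.13 in KO. Both KO libraries lay well below both WT libraries. The mean went from 9.41 ± 1.15 to 5.04 ± 0.125 FPKM, and *Braf* fell by 0.88 on the log2 scale (SE 0.12, 95% interval -1.18 to -0.58, adjusted p = 0.0114). It passed in all 9 alternatives that kept all libraries, and without WT replicate 1 the fall just exceeded 2-fold (log2 difference -1.01). In the files *Braf* lies on chr6, on the minus strand at 39602802-39725464. In GENCODE this stretch also overlaps the far more abundant *Ndufb2*, so the level of *Braf* is uncertain to that extent. *Ndufb2* was at 244 and 277 FPKM in WT and 285 and 287 in KO, and did not pass the test (adjusted p = 0.340). The bases just before its start, at chr6:39725464-39725713, are shown because *Braf* was the only kinase of the 5 to pass the test, and they hold neither motif searched.
Braf: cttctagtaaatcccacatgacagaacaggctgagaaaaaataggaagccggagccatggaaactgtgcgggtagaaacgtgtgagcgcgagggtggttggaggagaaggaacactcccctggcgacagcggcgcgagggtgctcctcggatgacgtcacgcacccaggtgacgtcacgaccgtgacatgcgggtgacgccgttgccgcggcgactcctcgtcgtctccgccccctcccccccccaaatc
*Araf*, its relative, was at 33.9 and 31.8 FPKM in WT and 30.5 and 30.4 in KO (log2 difference -0.11, adjusted p = 0.395), from a feature that also spans *Timp1* and *Syn1*.

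Downstream of RAF, *Map2k1* and *Map2k2*, which encode MEK1 and MEK2, were level. *Map2k2*, with the highest mean of the kinases, was at 45.6 and 40.9 FPKM in WT and 45.7 and 45.5 in KO, and its groups overlapped (log2 difference 0.08, SE 0.08, 95% interval -0.13 to 0.29, adjusted p = 0.579). *Map2k1* was at 43.9 and 43.1 FPKM in WT and 44.6 and 43.0 in KO (log2 difference 0.01, 95% interval -0.17 to 0.19, adjusted p = 0.943). *Mapk3*, which encodes ERK1, was at 39.1 and 33.99 FPKM in WT and 49.2 and 40.9 in KO. KO libraries lay above WT libraries there, but the difference of 0.30 (SE 0.12, adjusted p = 0.166) did not pass the test.

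Of the ERK feedback targets, 4 of 12 rose in KO and 8 did not pass the test. The 12 genes, which were all above the minimum in both genotypes, had a median log2 fold change of 0.25, with 10 positive and 2 negative values. Those that rose were *Dusp4*, *Dusp6*, *Spry4* and *Etv5*, or 33.3% of the group beside 6.85% of all tested features, and none fell. Summed FPKM over the 12 genes was 368 and 337 in WT and 434 and 401 in KO.

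The *Dusp* genes encode phosphatases that remove the activating phosphates from MAP kinases. *Dusp4*, a nuclear member, was at 3.22 and 2.86 FPKM in WT and 8.15 and 8.92 in KO. Every KO value was more than 2-fold above every WT value. The mean went from 3.04 ± 0.257 to 8.54 ± 0.549 FPKM, a 2.75-fold rise on the tested scale (log2 fold change 1.46, SE 0.12, adjusted p = 0.00403), which passed in all 9 alternatives that kept all libraries. With 1 library left out, the log2 fold change ranged from 1.38 to 1.55. *Dusp4* lies on the plus strand at chr8:34806519-34822087. *Dusp6*, the cytoplasmic phosphatase specific for ERK, was at 25.0 and 23.8 FPKM in WT and 35.5 and 36.2 in KO. The spread within each genotype was small beside the gap between them, and the 1.47-fold rise (log2 fold change 0.55, SE 0.08, 95% interval 0.36 to 0.74, adjusted p = 0.0116) also passed in all 9 alternatives that kept all libraries. With 1 library left out, the log2 fold change ranged from 0.52 to 0.59. The bases before its start, at chr10:99262981-99263230 on the plus strand, are shown because *Dusp6* held its rise throughout and is widely used as a readout of ERK. They hold neither motif searched.
Dusp6: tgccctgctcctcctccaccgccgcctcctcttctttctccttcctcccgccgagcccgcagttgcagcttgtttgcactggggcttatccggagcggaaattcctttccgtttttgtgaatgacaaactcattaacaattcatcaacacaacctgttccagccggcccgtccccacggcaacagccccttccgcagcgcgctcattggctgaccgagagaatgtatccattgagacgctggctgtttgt
*Dusp5*, another nuclear ERK phosphatase, was at 6.49 and 7.50 FPKM in WT and 9.73 and 9.48 in KO. Its log2 difference of 0.46 (SE 0.11) missed the threshold with an adjusted p of 0.0518. It passed with a minimum mean of 1 FPKM, median-of-ratios scaling or a replicate block, but not in the other alternatives with all libraries in. With 1 library left out, the log2 difference ranged from 0.35 to 0.56. *Dusp7* was the exception in direction, at 6.88 and 6.20 FPKM in WT and 5.90 and 5.08 in KO (log2 difference -0.25, SE 0.13, adjusted p = 0.249), and it did not pass. Together the 4 genes summed to 41.6 and 40.3 FPKM in WT and 59.3 and 59.7 in KO. *Dusp6* kept a share near 60% of this sum, between 59.0% and 60.7% in the 4 libraries, while *Dusp4* went from 7.74% and 7.08% to 13.7% and 14.9%.

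Sprouty and SPRED proteins block the step from receptor to RAF. *Spry4* was at 29.6 and 25.9 FPKM in WT and 38.2 and 36.1 in KO. The groups did not overlap, and the rise of 0.42 on the log2 scale (SE 0.10, adjusted p = 0.0436) passed the test. It did not pass with no minimum FPKM or without a variance trend (adjusted p up to 0.102). Nor did it pass without WT replicate 2, KO replicate 1 or KO replicate 2. With 1 library left out, its log2 difference ranged from 0.32 to 0.52. *Spry2* was at 34.7 and 31.5 FPKM in WT and 42.5 and 39.1 in KO and showed a like separation, but its log2 difference of 0.30 (SE 0.09, adjusted p = 0.0871) did not pass. *Spry1*, between 7.75 and 10.9 FPKM, and *Spred2*, between 26.5 and 30.5 FPKM, overlapped between the genotypes. *Spred1* was at 20.4 and 22.8 FPKM in WT and 22.8 and 26.5 in KO, with an adjusted p of 0.309.

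The *Etv* genes encode ETS transcription factors. *Etv4* had the highest mean FPKM among the feedback targets in WT, at 104 and 94.5, and was at 100.5 and 82.8 FPKM in KO, with overlapping groups (log2 difference -0.12, SE 0.11, adjusted p = 0.525). *Etv5* was at 90.6 and 78.4 FPKM in WT and 118.9 and 109.9 in KO. Here the groups were separate, and *Etv5* rose from 84.5 ± 8.64 to 114 ± 6.40 FPKM (log2 fold change 0.44, SE 0.10, adjusted p = 0.0409). It did not pass with no minimum FPKM or without a variance trend (adjusted p up to 0.103), nor without WT replicate 2 or KO replicate 1. With 1 library left out, its log2 difference ranged from 0.33 to 0.54. The ratio of *Etv5* to *Etv4* was 0.870 and 0.830 in WT and 1.18 and 1.33 in KO, so the order of these related genes turned round in both KO libraries. *Etv1* lay between 8.17 and 10.0 FPKM and did not pass (adjusted p = 0.282). The bases before the upstream *Etv5* start, at chr16:22439571-22439820 on the minus strand, are shown next to those of *Dusp6* as a further target that rose, and they hold neither motif.
Etv5: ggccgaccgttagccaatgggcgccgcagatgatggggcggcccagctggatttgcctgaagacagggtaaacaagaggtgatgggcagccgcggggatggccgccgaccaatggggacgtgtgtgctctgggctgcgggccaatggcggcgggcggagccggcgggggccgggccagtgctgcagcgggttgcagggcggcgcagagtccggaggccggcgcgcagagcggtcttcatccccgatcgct

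**Figure D4:**
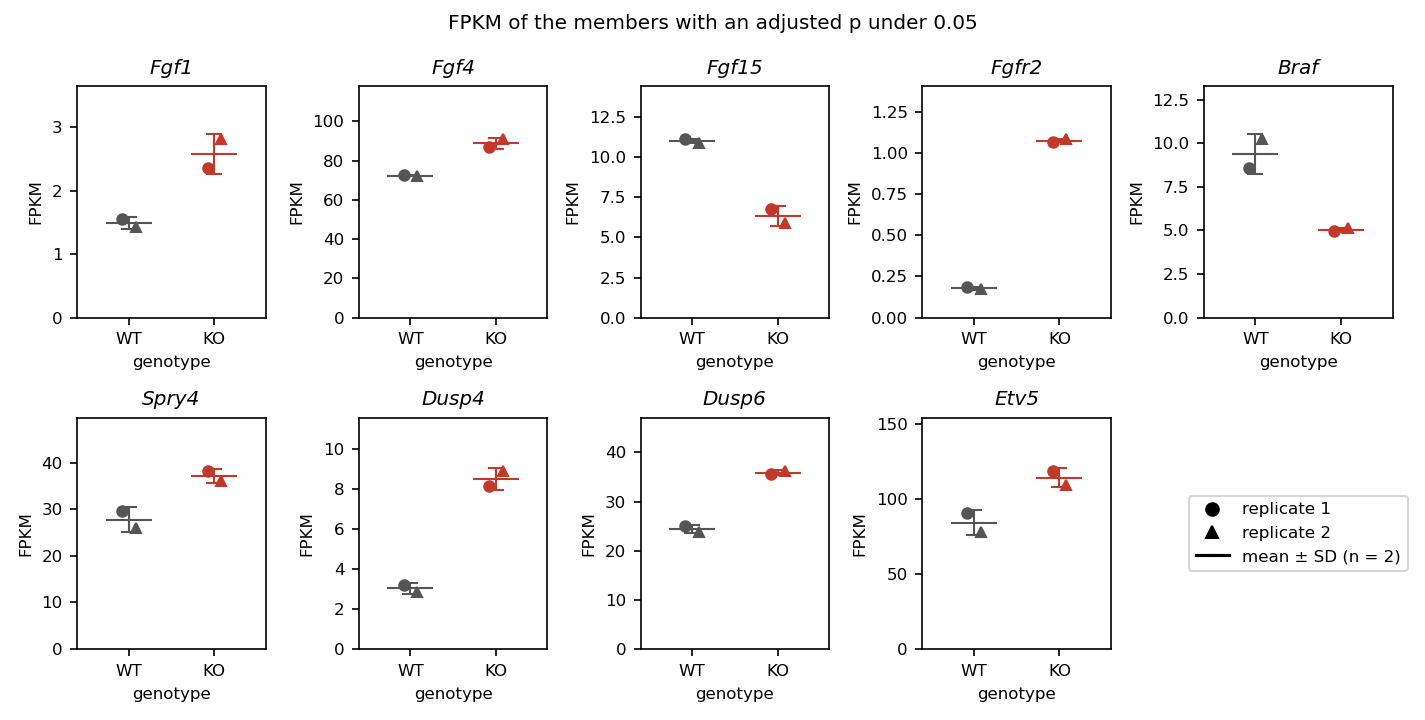
FPKM of the 9 genes with an adjusted p under 0.05 in WT (grey) and KO (red) ESCs, with circles and triangles for replicates 1 and 2, and mean ± SD (n = 2) as lines. The groups do not overlap in any panel, *Fgf15* and *Braf* are the panels in which KO is lower, and each axis starts at 0.

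The rest of the pathway was read from a list of 74 other genes, of which 71 were found and 51 tested. Here 10 rose (19.6%, beside 6.85% of all features) and 4 fell (7.84%, beside 5.6%), and the median log2 fold change was 0.05. Among the 10, 4 were called higher (7.84%, beside 2.72% of all features), and 0 were called lower (1.42% of all features). Leaving out *Fgf11* and *Fgfbp3*, which reached the minimum through 1 genotype only, 9 of 49 rose, 4 fell and 3 were called higher. The called ligand *Fgf18* was at 1.81 and 2.04 FPKM in WT and 6.84 and 6.58 in KO (log2 fold change 1.75, SE 0.13, adjusted p = 0.00260). *Fgfbp1*, which encodes a carrier that frees FGFs from the matrix, was at 2.40 and 2.21 FPKM in WT and 6.17 and 7.05 in KO (1.48 on the log2 scale, SE 0.13, adjusted p = 0.00471). *Elk3*, an ETS factor phosphorylated by ERK, was at 1.19 and 1.23 FPKM in WT and 2.73 and 3.08 in KO (1.19, SE 0.16, adjusted p = 0.0109). In these 3 genes the KO libraries stood far above the WT libraries. *Fgf11*, an intracellular FGF that does not act through the receptors, was at 0.315 and 0.312 FPKM in WT and 0.904 and 0.778 in KO. It reached the minimum only through KO, and its adjusted p of 0.0499 did not hold with a pseudocount of 0.01 (0.0588), with no minimum (0.0649), under quantile scaling (0.0577) or without KO replicate 2 (0.134).

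By role, the 2 tested ligands of the list (*Fgf18* and *Fgf11*), 3 of 12 receptor-like genes and cofactors, 2 of 14 adaptor and RAS genes, 1 of 9 kinases and their partners, and 2 of 14 phosphatases, feedback genes and nuclear targets rose. Of the genes that rose, *Shc1* and *Elk1* were on features merged with *Pygo2* and *Cfp*, so their rise cannot be assigned to them alone. The 4 that fell were *Rasa2*, *Dusp16*, *Egr1* and *Phlda1*. Among them *Egr1*, an immediate early gene switched on by ERK, was at 13.4 and 12.1 FPKM in WT and 7.60 and 7.14 in KO (log2 fold change -0.78, adjusted p = 0.00994), and *Phlda1*, also induced by ERK, was at 12.6 and 12.3 FPKM in WT and 5.91 and 6.57 in KO (log2 fold change -0.99, adjusted p = 0.00596). Both were named after their values were seen, since they are ERK targets that fell where *Dusp4*, *Dusp6*, *Spry4* and *Etv5* rose. ERK-induced genes thus did not move one way in KO ESCs.

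**Figure D5:**
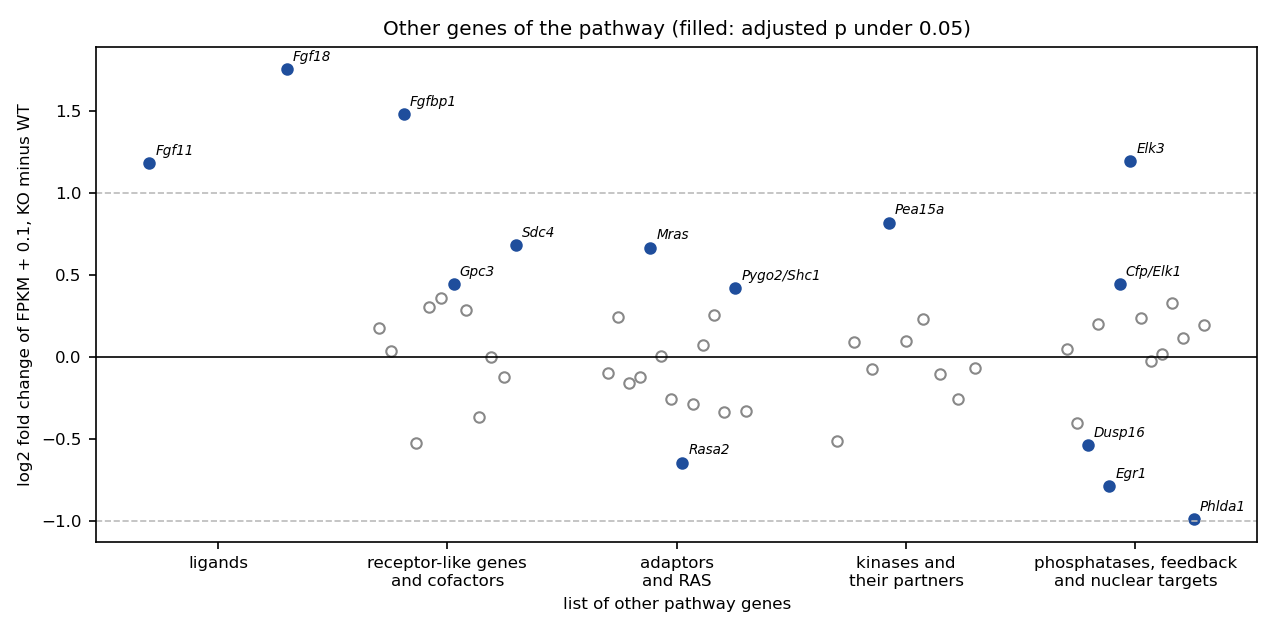
Log2 fold change of KO over WT on the log2(FPKM + 0.1) scale for the 51 tested genes of the list of other pathway genes, by role, with filled and named points at an adjusted p under 0.05 and dashed lines at 2-fold. The 14 filled points run from -0.99 for *Phlda1* to 1.75 for *Fgf18*, and names joined by a slash are features that merge 2 genes.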

How the data were processed

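Ribosomal RNA-depleted RNA of 2 WT and 2 *Bmal1* KO ESC samples was sequenced, and groups and replicate numbers were taken from the labels. The study calls the replicates biological duplicates. The labels name no separate cultures, and p-values measure the spread between these libraries. The authors deposited FPKM values per feature for each library, made on GRCm38. TopHat2 2.1.1, Bowtie2 2.3.0 and Cufflinks 2.2.1 are named in the submitters' processing notes. The study states default aligner settings, which do not use strand, so reads of overlapping or antisense genes cannot be told apart.

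Features whose mean over the 4 libraries reached 0.5 FPKM were compared as log2(FPKM + 0.1) in limma 3.58.1 under R 4.3.3, with a variance trend, empirical Bayes and Benjamini-Hochberg adjustment over 12990 features. Exact permutation of 2 against 2 libraries cannot go below p = 0.333 (two-sided) and was not used. The script was tested on simulated data. Coordinates start at 1, after 1 was added to each start, and identities were checked against GENCODE M21 on GRCm38. Promoters came from RefSeq on GRCm38.p6. Python 3.11.15, numpy 2.4.6, pandas 2.3.3 and matplotlib 3.10.9 were used.

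The genes and lists were chosen with earlier results of these data known. Described in full were genes with an adjusted p under 0.05, the most abundant gene of each role, and called genes among the other pathway genes. Altogether 13 alternatives were run: 2 pseudocounts (1 and 0.01), no minimum and a minimum of 1, quantile and median-of-ratios scaling, a replicate block, no variance trend, sums over features sharing a symbol, and each library left out. A library left out leaves a single library in its genotype, so p-values then rest on the spread within the other genotype.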

Additional observations from a re-analysis of the deposited data

How the results depend on the processing

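Of the 9 genes with an adjusted p under 0.05, *Fgfr2* was tested only through its KO values. Of the other 8, 4 (*Fgf15*, *Braf*, *Dusp4* and *Dusp6*) passed in every alternative that kept all libraries. The other 4 (*Fgf1*, *Fgf4*, *Spry4* and *Etv5*) lost the call in at least 1 of these. The number that rose went from 7 to 3 without a minimum FPKM, where more features were tested and *Fgf1*, *Fgf4*, *Spry4* and *Etv5* were lost. It went to 5 without a variance trend, where *Fgf4*, *Spry4* and *Etv5* were lost and *Fgf3* passed. The number that fell was 2 or 3 with all libraries in. Called higher were 1 in place of 2 genes with a pseudocount of 1 or a minimum mean of 1 FPKM, and 1 to 3 with 1 library left out, while called lower were 0 to 1. Among the other pathway genes, 2 in place of 4 were called higher with a pseudocount of 1, 3 to 4 with 1 library left out, and 0 to 1 were called lower. With the replicate number as a block, 11 genes rose in place of 7. Replicate 1 deviations of WT and KO correlated at only 0.0712 across features, the labels do not say that equal numbers were processed together, and the numbers were not taken as pairs. Among the 31 genes, signs turned only in those that did not pass the test, when 1 library was left out or, for *Hras*, under quantile scaling. The log2 difference then ranged from -0.12 to 0.031 for *Fgfr1*, from -0.28 to 0.012 for *Sos1*, from -0.094 to 0.056 for *Hras* (0.00015 under quantile scaling), from -0.017 to 0.036 for *Map2k1*, from -0.0037 to 0.35 for *Spry1*, from -0.018 to 0.15 for *Spred2* and from -0.26 to 0.019 for *Etv4*. The cause was not tested. Over the 31 genes 20 were higher and 11 lower as reported, and 21 and 10 under quantile scaling. Since depth is unknown, values near or under 0.5 FPKM have no error beyond the spread of 2 libraries.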
